A study of Arabidopsis thaliana with 21 samples.

Results

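The 9 genes described here encode proteins of the nucleolus that make, modify and package ribosomal RNA in Arabidopsis thaliana. They were taken by locus from a given list, and their probe sets were averaged per locus, which gave 9 of the 27789 loci measured. The list holds FIB1 (AT5G52470) and FIB2 (AT4G25630), NUC-L1 (AT1G48920) and NUC-L2 (AT3G18610), NOP56 (AT1G56110), NAP57 (AT3G57150, also called CBF5) and NOP10 (AT2G20490). Its other members, AT5G27120 and AT3G05060, are entered there as NOP58-like genes and have no symbol in the reference table, so they are given by locus. FIB1 and NOP10 had 2 probe sets each and the other members 1. The rule uses loci and no measured value.

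A ribosome begins in the nucleolus, where RNA polymerase I transcribes the long precursor of ribosomal RNA. Small nucleolar RNAs guide chemical marks onto that precursor. In box C/D particles fibrillarin is the methyltransferase, and NOP56 and NOP58 hold the particle together, whereas in box H/ACA particles the dyskerin homolog CBF5 makes pseudouridine and NOP10 is a small core subunit. Nucleolin binds ribosomal DNA chromatin and the precursor RNA. A dry seed holds stored ribosomes and stored transcripts, and it takes up protein synthesis again when it is imbibed.

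The study followed cultivar Col-0 from seed to seedling. Its 7 stages were the mature dry seed (DS), the seed after 6 h of imbibition (6H), testa rupture (TR), when the seed coat splits, radicle protrusion (RP), the first root hairs (RH), green cotyledons (GC) and open cotyledons (OC). All groups share the cultivar, no treatment or mutation separates them, and the labels describe cold stratification for 72 h at 4 °C followed by constant white light at 22 °C. Each stage has 3 biological replicates, each a pool of seeds harvested from 3 to 4 plants, with 3000 seeds picked per stage under a stereomicroscope. The labels do not say from when the 6 h were counted.

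Values are on the log2 scale of robust multi-array averaging (RMA), so that a step of 1 is a 2-fold change, and their number, 3 arrays a stage, limits the precision. A change is the later stage minus the earlier one ± its standard error from limma. A gene rose or fell where the p adjusted over all 27789 loci was under 0.05. The lowest correlation between replicates of a stage was 0.981, in DS. The marker lists followed the labels in part: the median of 5 seed maturation genes was 5.71 at TR and 11.62 in DS, that of 4 root hair genes was 7.63 at RH and 4.32 at RP, and that of 4 genes of green cotyledons was 10.86 at OC and 5.17 in DS. Of the 4 root hair genes 3 rose between RP and RH. RHD6 did not pass, with 5.92 at RP and 5.76 at RH, and was highest at TR (6.10). Of 5 seed coat markers, MUM2 was at 3.35 in DS, 3.64 at 6H, 6.62 at TR and 7.15 at RP, its highest stage. The other 4 (BAN, TT10, TT12 and TT2) had a level between 2.62 and 3.81 at every stage. That is near the floor of the arrays, which was set at 3.47, the 30th percentile of all values. Of 6 endosperm markers, RGE1 (ZOU) and FIS2 were as low, and AGL62 was under the floor from 6H on.

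All 9 genes had their highest stage mean at 6H. For FIB2, NOP56 and AT3G05060 the difference between 6H and TR did not pass (limma, adjusted p = 0.065, 0.62 and 0.37). All 9 passed the F test of change over the series, which also asked for at least 1 log2 unit between the highest and the lowest stage mean. Over all loci 66.4% passed that test, and 13.7% passed it with their highest mean at 6H. From their 6H level to OC all 9 fell at least 2-fold, against 21.7% of all loci. The fall was 2.71-fold for NAP57 and 6.7-fold for AT5G27120, and that of NUC-L2, 8.43-fold, ended at the floor. RNA came from whole seeds or seedlings, in which less RNA per cell and fewer cells of a type cannot be told apart.

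**Figure D1:**
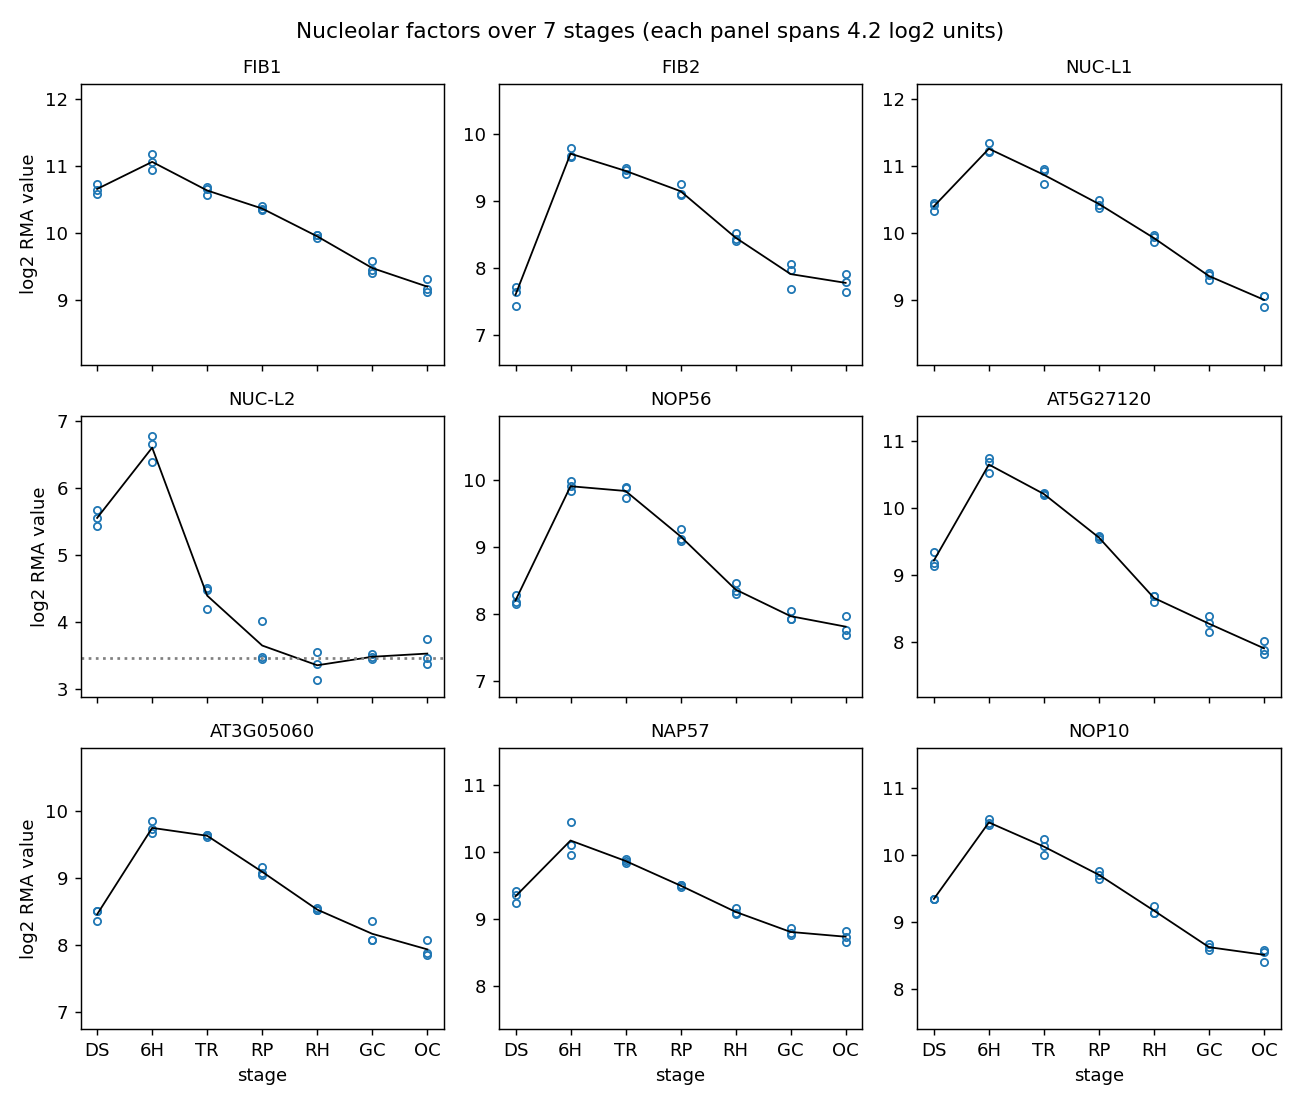
Level of each of the 9 genes (log2 RMA value, vertical axis) at the 7 stages in developmental order (horizontal axis). Circles are single arrays, 3 a stage, black lines join stage means, every panel spans the same number of log2 units, and the dotted line marks the floor of 3.47. All 9 lines peak at 6H. FIB2 starts lowest relative to its peak, and NUC-L2 is at the floor from RP on.

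The fibrillarin genes had the smallest and the largest rise of the 9 on imbibition. FIB1 read 10.66, 10.59 and 10.74 in the 3 DS arrays, 11.07, 10.95 and 11.18 at 6H and 10.57, 10.69 and 10.66 at TR. It then read 10.40, 10.35 and 10.36 at RP, 9.97, 9.93 and 9.97 at RH, 9.41, 9.45 and 9.59 at GC and 9.32, 9.12 and 9.17 at OC. The DS and TR arrays overlap, and the 6H arrays stood above both. FIB1 rose by 0.40 ± 0.09 between DS and 6H (adjusted p = 0.00087). That rise is the one among the 9 that depended on the scaling: it was 0.04 on arrays centred on the median of all loci and 0.22 on arrays centred on reference genes (adjusted p = 0.74 and 0.091). Between DS and TR its change was -0.02 ± 0.09 (adjusted p = 0.83), and this too depended on the scaling: it was -0.41 with median centring and -0.33 with centring on reference genes (adjusted p = 0.0015 and 0.015). The order of its stages was 6H, DS, TR, RP, RH, GC and OC, in which the pairs DS and TR, and TR and RP, did not pass the test.

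FIB2 read 7.65, 7.44 and 7.73 in DS, 9.79, 9.68 and 9.67 at 6H and 9.41, 9.50 and 9.47 at TR. Later it read 9.25, 9.09 and 9.11 at RP, 8.53, 8.43 and 8.41 at RH, 7.70, 8.07 and 7.98 at GC and 7.79, 7.91 and 7.65 at OC. The dry seed and OC arrays overlap, and every array between 6H and RH lies above both. The rise from DS to 6H was 2.11 ± 0.11, 4.31-fold (adjusted p = 3.3e-12), the largest among the members. Its 6H, TR and RP means were 9.71 ± 0.07, 9.46 ± 0.05 and 9.15 ± 0.09 (SD, n = 3 each), and neither step between them passed (adjusted p = 0.065 and 0.074). It is the sole member that was lowest in DS, and at OC it stood 0.18 ± 0.11 above DS (adjusted p = 0.15). That last value changed sign with the scaling, to -0.36 (adjusted p = 0.0069) on median-centred arrays, and was 0.33 (adjusted p = 0.011) after a further quantile normalization.

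The nucleolin genes had different courses after 6H. NUC-L1 read 10.44, 10.33 and 10.43 in DS, 11.22, 11.21 and 11.34 at 6H and 10.95, 10.73 and 10.92 at TR. Its values were 10.50, 10.42 and 10.38 at RP, 9.97, 9.87 and 9.94 at RH, 9.40, 9.30 and 9.37 at GC and 9.06, 9.06 and 8.89 at OC. No 2 consecutive stages overlap. After its rise of 0.86 ± 0.09 (adjusted p = 9.2e-08), NUC-L1 fell at each of the 5 later steps, by 0.35 to 0.57 a step. Its level was 10.43 ± 0.06 at RP and 10.40 ± 0.06 in DS (SD), a difference of 0.03 ± 0.09 that did not pass (adjusted p = 0.74). It was -0.36 on median-centred arrays (adjusted p = 0.0068) and -0.21 on arrays centred on reference genes (adjusted p = 0.13).

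NUC-L2 is the gene known in Arabidopsis to be expressed when NUC-L1 is lost. It read 5.68, 5.44 and 5.56 in DS, 6.66, 6.78 and 6.39 at 6H and 4.48, 4.52 and 4.19 at TR. At RP it read 3.49, 4.01 and 3.45, at RH 3.14, 3.37 and 3.56, at GC 3.45, 3.53 and 3.48 and at OC 3.47, 3.75 and 3.38. The DS, 6H and TR arrays do not overlap, and from RP to OC the stages overlap one another around the floor, so that values there have no order. NUC-L2 rose by 1.05 ± 0.16 between DS and 6H (adjusted p = 6.9e-06) and fell by 2.21 ± 0.16 between 6H and TR, 4.63-fold (adjusted p = 4.3e-10). It fell by a further 0.75 ± 0.16 between TR and RP (adjusted p = 0.0022), and no later step passed the test. TR was already 1.16 ± 0.16 below DS (adjusted p = 1.3e-06). The 4 late stages held 5 arrays under the floor, 1 at RP, 2 at RH, 1 at GC and 1 at OC, so falls that end there are lower bounds.

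NOP56 and the genes entered as NOP58-like, which stand for the core proteins of box C/D particles, rose at 6H. Between 6H and TR AT5G27120 fell, and NOP56 and AT3G05060 did not pass the test. NOP56 read 8.29, 8.15 and 8.18 in DS, 9.91, 9.99 and 9.84 at 6H, 9.91, 9.73 and 9.88 at TR and 9.27, 9.13 and 9.09 at RP. It read 8.47, 8.30 and 8.34 at RH, 7.92, 8.06 and 7.94 at GC and 7.98, 7.77 and 7.70 at OC. The 6H and TR arrays overlap, and both lie above all others. NOP56 rose by 1.71 ± 0.10, 3.26-fold, on imbibition (adjusted p = 1.5e-11). Its change between 6H and TR was -0.07 ± 0.10 (adjusted p = 0.62), and it then fell by 0.68 ± 0.10 to RP and by 0.79 ± 0.10 to RH.

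AT5G27120 read 9.34, 9.14 and 9.18 in DS, 10.69, 10.52 and 10.74 at 6H, 10.22, 10.20 and 10.21 at TR and 9.58, 9.56 and 9.54 at RP. It read 8.69, 8.60 and 8.68 at RH, 8.14, 8.39 and 8.29 at GC and 8.02, 7.88 and 7.82 at OC. No neighbouring stages overlap, and each of the 7 stages differed from the next in the order 6H, TR, RP, DS, RH, GC, OC. The difference between RP and DS in that order, 0.34 ± 0.10 (adjusted p = 0.0036), was -0.05 with median centring and 0.10 with centring on reference genes, and passed under neither (adjusted p = 0.66 and 0.46). The rise was 1.43 ± 0.10 (adjusted p = 1.1e-10). AT5G27120 fell by 0.44 ± 0.10 between 6H and TR (adjusted p = 0.00071), and the fall between RP and RH, 0.90 ± 0.10 (adjusted p = 7.2e-07), was the largest of its falls.

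AT3G05060 read 8.51, 8.51 and 8.35 in DS, 9.73, 9.67 and 9.85 at 6H, 9.64, 9.64 and 9.61 at TR and 9.16, 9.07 and 9.04 at RP. It read 8.55, 8.52 and 8.52 at RH, 8.35, 8.08 and 8.07 at GC and 8.07, 7.89 and 7.85 at OC. The RH arrays were just above those of DS. AT3G05060 rose by 1.29 ± 0.10 on imbibition (adjusted p = 7.2e-10), changed by -0.12 ± 0.10 between 6H and TR (adjusted p = 0.37) and fell by 0.54 ± 0.10 and 0.56 ± 0.10 at the next steps, to RP and to RH. RH and DS differed by 0.07 ± 0.10 (adjusted p = 0.53), and on median-centred arrays by -0.35 (adjusted p = 0.0087).

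The genes of the box H/ACA particle also rose at 6H and stood below their dry seed level at OC. NAP57, the pseudouridine synthase, read 9.24, 9.35 and 9.41 in DS, 10.10, 9.96 and 10.44 at 6H, 9.89, 9.83 and 9.86 at TR and 9.47, 9.50 and 9.50 at RP. It read 9.07, 9.15 and 9.08 at RH, 8.87, 8.79 and 8.75 at GC and 8.73, 8.81 and 8.64 at OC. Replicate 3 at 6H stood above the other 2. NAP57 rose by 0.83 ± 0.11 between DS and 6H (adjusted p = 1.1e-06). Its fall between 6H and TR, 0.31 ± 0.11 (adjusted p = 0.023), was 0.17 (adjusted p = 0.19) without that replicate, and it did not pass without TR replicate 2 or 3 either (adjusted p = 0.061 and 0.052). The fall of 0.37 ± 0.11 between TR and RP (adjusted p = 0.023) did not pass without any 1 of the 6 arrays, with adjusted p between 0.052 and 0.07. Over the series its range, 2.71-fold, was the smallest of the 9.

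NOP10, the small core subunit, read 9.33, 9.34 and 9.34 in DS, 10.48, 10.44 and 10.53 at 6H, 10.23, 10.00 and 10.13 at TR and 9.76, 9.70 and 9.63 at RP. It read 9.12, 9.14 and 9.23 at RH, 8.58, 8.66 and 8.62 at GC and 8.54, 8.58 and 8.39 at OC. Only GC and OC overlap among consecutive stages. NOP10 rose by 1.14 ± 0.09 (adjusted p = 1e-09) and fell at the next 4 steps, by 0.36 to 0.55 a step.

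The step from dry seed to 6H was the sole step at which members rose. All 9 rose, 6 of them at least 2-fold, with a median change of 1.14. Of all loci 29.6% rose, 14.6% at least 2-fold, and 40% fell, with a median change of -0.23. In all 9 genes each 6H array lay above each DS array, as it did in 30.1% of all loci. The order of size ran from FIB2 (2.11), NOP56 (1.71), AT5G27120 (1.43), AT3G05060 (1.29), NOP10 (1.14), NUC-L2 (1.05), NUC-L1 (0.86) and NAP57 (0.83) to FIB1 (0.40). The scaling bears on this step. The median over all loci averaged 5.14 over the 6H arrays and 4.77 over the DS arrays, while more loci fell than rose. On median-centred arrays the median change of all loci was -0.60 and 25.5% of the calls were rises, against 42.5% as deposited and 32.3% on arrays centred on reference genes. Under both centrings 8 of the 9 genes rose, FIB1 being the exception.

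Between 6H and TR 6 members fell and 0 rose, against 26.2% and 22.2% of all loci. The fall of NUC-L2 was the only one of at least 2-fold, against 7.34% of all loci, and the median change was -0.36. FIB2, NOP56 and AT3G05060 did not pass, with changes of -0.26, -0.07 and -0.12. In 8 of the 9 genes, NOP56 being the exception, the TR arrays lay below the 6H arrays, as they did in 30.4% of all loci. Both the rise and the fall were thus called for 6 of 9 members, and for 9.18% of all loci.

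The falls went on through the next 3 steps. Between TR and RP 7 members fell and 0 rose, against 7.45% and 7.83% of all loci, and FIB1 and FIB2 did not pass (adjusted p = 0.058 and 0.074). Between RP and RH 8 members fell and 0 rose, against 11.9% and 11.5%, and NUC-L2 did not pass (adjusted p = 0.2). Between RH and GC 7 members fell and 0 rose, against 10.9% and 10.1%, and NAP57 (-0.30, adjusted p = 0.052) and NUC-L2 (0.13, adjusted p = 0.66) did not pass. At these 3 steps 0 members fell 2-fold, against 0.766%, 1.74% and 0.972% of all loci, and the median changes were -0.44, -0.53 and -0.40 in the order of the steps. Centring on reference genes left 4 falls between TR and RP, those of NOP56, AT5G27120, AT3G05060 and NUC-L2, and between RP and RH it left FIB1 and NAP57 without a call (adjusted p = 0.11 and 0.19). The fall of AT3G05060 between RH and GC, 0.36 ± 0.10 (adjusted p = 0.012), did not pass without GC replicate 2 or 3 (adjusted p = 0.059 and 0.058).

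Between GC and OC 3 members fell, FIB1 (-0.28 ± 0.09), NUC-L1 (-0.35 ± 0.09) and AT5G27120 (-0.37 ± 0.10), and 0 rose, against 17.9% and 16.1% of all loci. The other 6 had changes between -0.23 and 0.05. The fall of FIB1 (adjusted p = 0.027) did not pass without GC replicate 3, OC replicate 2 or OC replicate 3 (adjusted p = 0.12, 0.091 and 0.073), and none of the 3 passed in a fit on the 6 arrays of these stages alone.

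**Figure D2:**
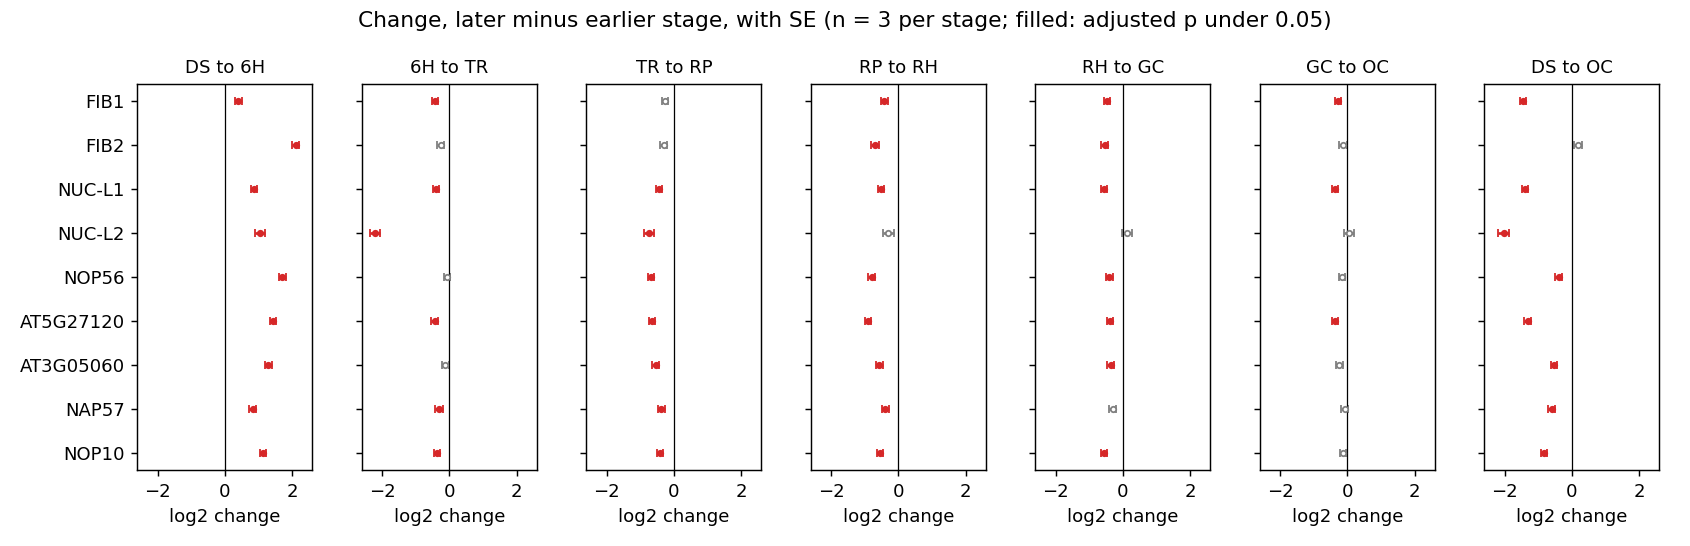
Change of each gene (log2, horizontal axis; bars are standard errors from limma, n = 3 arrays a stage) at the 6 consecutive steps and over the span from DS to OC, later stage minus earlier. Filled red points passed an adjusted p under 0.05 and open grey points did not. All 9 points lie right of 0 at the first step, and nearly all lie left of it afterwards, with NUC-L2 at -2.21 between 6H and TR.

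Set against the dry seed, 7 members stood above it at TR, 5 at RP, 1 at RH and 1 at GC. These comparisons share the 3 DS arrays. At TR 7 members stood above DS and 1, NUC-L2, below it, against 31.3% and 40% of all loci. Under either centring 5 stood above and 2, NUC-L2 and FIB1, below, and NUC-L1 and NAP57 did not pass. At RP 5 stood above, namely FIB2 (1.55), NOP56 (0.96), AT3G05060 (0.63), NOP10 (0.36) and AT5G27120 (0.34), and 2 below, NUC-L2 (-1.91) and FIB1 (-0.29), against 31.7% and 40.8%. On arrays centred on the median or on reference genes 2 and 3 members stood above at RP. At RH FIB2 alone stood above (0.85 ± 0.11) and 4 stood below, NUC-L2, FIB1, AT5G27120 and NUC-L1, against 32.2% and 41.6%, and on median-centred arrays 8 stood below. At GC FIB2 stood 0.31 ± 0.11 above (adjusted p = 0.018), though 0 members did so under either centring, and the other 8 stood below, against 32.6% and 39.8%. All these shares of all loci are as deposited, and those under the centrings were not counted for these comparisons. On median-centred arrays 60.4% of all loci fell between DS and 6H and 62.8% between DS and OC, against 40% and 42.4% as deposited.

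At OC 8 members were lower than in DS and FIB2 did not pass, where 42.4% of all loci fell and 33.2% rose. The median change was -0.83, against -0.20 over all loci. NUC-L2 (-2.03 ± 0.16), FIB1 (-1.46 ± 0.09), NUC-L1 (-1.40 ± 0.09) and AT5G27120 (-1.31 ± 0.10) fell at least 2-fold, as 21.6% of all loci did. The changes of NOP10 (-0.83 ± 0.09), NAP57 (-0.60 ± 0.11), AT3G05060 (-0.52 ± 0.10) and NOP56 (-0.39 ± 0.10) were smaller. A rise, a fall at TR and a level at OC below that of DS were called together for 6 members, and for 6.11% of all loci. Of the calls over all loci between DS and OC 43.9% were rises, and 28% on median-centred arrays.

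Related genes were compared within each array, where a shift of the whole array cancels. FIB2 minus FIB1 averaged -1.37 ± 0.18 over the 18 arrays after the dry seed and -3.06 ± 0.09 (SD) over the 3 DS arrays. Every one of the 18 lay between -1.71 and -1.15, and the DS arrays read -3.01, -3.16 and -3.01. The gap, -1.68 as DS minus later, had a 2-sided exact permutation p of 0.00075, the smallest that 1330 regroupings can give (adjusted over 3 pairs, 0.00226). The later arrays come from 6 stages and are not replicates of 1 condition. For this and the other pairs the test regroups single arrays as if independent, although the 3 arrays of a stage are near copies. Its p is therefore likely too small. Between single stages, where 3 against 3 arrays cannot give a p under 0.1, the pair's difference changed by 1.70 between DS and 6H and by 0.17 or less in either direction at the other steps apart from -0.28 between RP and RH.

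For the nucleolin genes the break lay between 6H and TR. NUC-L1 minus NUC-L2 was 4.84 ± 0.07 in DS, 4.65 ± 0.27 at 6H, 6.47 ± 0.26 at TR, 6.78 ± 0.33 at RP, 6.57 ± 0.23 at RH, 5.87 ± 0.09 at GC and 5.47 ± 0.14 at OC (SD, n = 3 each). The change between 6H and TR was 1.82 (exact permutation p = 0.1, the smallest possible). From RP on NUC-L2 was at the floor, so the later differences are lower bounds. The 18 later arrays averaged 5.97 ± 0.78 and the DS arrays 4.84 ± 0.07 (exact permutation p = 0.0211, adjusted 0.0316). Those 18 mix 6H, whose mean lay below that of DS, with stages at the floor, and are not replicates of 1 condition. Without DS replicate 1, 2 or 3 the permutation p was 0.068, 0.053 and 0.053.

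For the genes entered as NOP58-like the mean difference was largest at 6H, fell up to RH, changed by only -0.02 between RH and GC and was lowest at OC. AT5G27120 minus AT3G05060 was 0.76 ± 0.11 in DS, 0.90 ± 0.05 at 6H, 0.58 ± 0.02 at TR, 0.47 ± 0.04 at RP, 0.13 ± 0.04 at RH, 0.11 ± 0.28 at GC and -0.03 ± 0.02 at OC (SD, n = 3 each). At GC replicate 1 read -0.21 and the others 0.31 and 0.22. Later arrays averaged 0.36 ± 0.35, and the test against DS did not pass (exact permutation p = 0.0699).

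**Figure D3:**
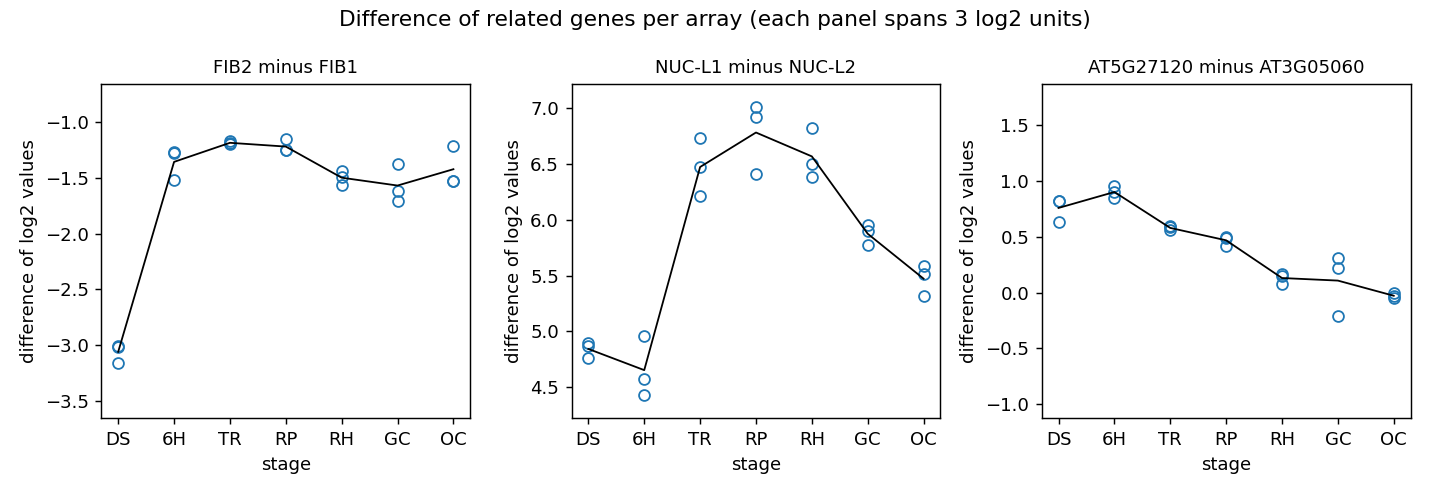
Difference of log2 values of related genes within each array (vertical axis; all panels span the same number of units) at the 7 stages (horizontal axis). Circles are arrays, 3 a stage, and lines join stage means. FIB2 minus FIB1 steps up once, after DS. NUC-L1 minus NUC-L2 steps up after 6H, is 6.78 at RP, and comes down to 5.47 at OC, with NUC-L2 at the floor from RP on. The mean of AT5G27120 minus AT3G05060 falls from 6H to RH, is about the same at GC, where the arrays are spread, and is lowest at OC.

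Over the 21 arrays most members moved together. These correlations describe 21 arrays that share the stages, and 3 arrays of a stage are near copies. Each gene's correlation with the mean of the other 8 was between 0.924 and 0.993 for 7 of the members, 0.809 for FIB2 and 0.653 for NUC-L2. The closest pair was AT5G27120 and NOP10 (r = 0.989), and the least alike were FIB2 and NUC-L2 (r = 0.363). FIB1 was closer to NUC-L1 (r = 0.975) than to its relative FIB2 (r = 0.659), and FIB2 was closest to NOP56 (r = 0.954).

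**Figure D4:**
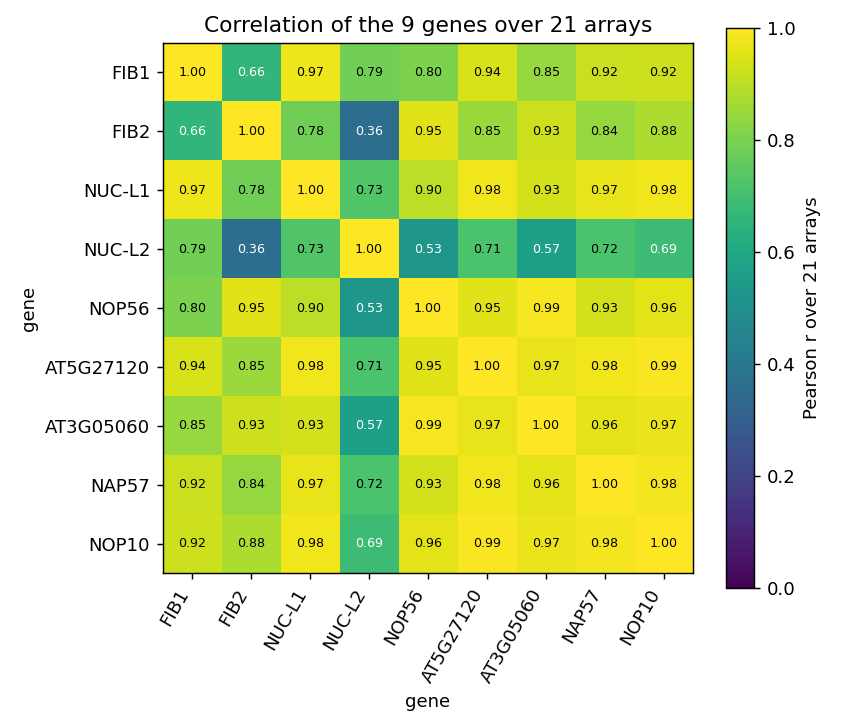
Pearson correlation between each pair of the 9 genes over 21 arrays (colour and printed value). The row of NUC-L2 is the darkest, with its lowest value, 0.36, against FIB2.

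Outside the list, the 5 loci whose values over the 21 arrays were most like the mean of the members, among 18454 that passed the F test, were PUM24 (AT3G16810, r = 0.994), STRS1 (AT1G31970, r = 0.994), AT4G25730 (r = 0.993), EMB3012 (AT5G40480, r = 0.991) and SAD2 (AT2G31660, r = 0.991). PUM24 stood at 7.30 in DS, 9.25 at 6H and 6.06 at OC. The locus most like each member was NRPC2 for FIB1 (r = 0.993), AT1G28395 for FIB2 (r = 0.988), ECT3 for NUC-L1 (r = 0.995), AT5G10120 for NUC-L2 (r = 0.989) and SOB3 for NOP56 (r = 0.987). It was AT2G32220 for AT5G27120 (r = 0.993), RPC14 for AT3G05060 (r = 0.992), AT3G13230 for NAP57 (r = 0.982) and AT5G38720 for NOP10 (r = 0.993). AT5G10120, like NUC-L2, was at its highest at 6H (9.78), and its means were 5.35 at TR and 3.62 at RP.

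The other genes of the pathway were described by 6 lists with 88 loci. Between DS and 6H 81 of the 88 rose and 3 fell, against 29.6% and 40% of all loci, with a median change of 0.98, against -0.23 over all loci. The count of rises depended on the scaling: on median-centred arrays it was lower, in each of the 6 lists. Between 6H and TR 53 fell and 4 rose, against 26.2% and 22.2%. Between DS and OC 63 fell and 12 rose, against 42.4% and 33.2%.

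Among 10 other proteins of small nucleolar particles 8 rose at 6H and 1 fell (median 1.23), against 29.6% and 40% of all loci, and 7 fell at TR, against 26.2%. AT4G22380 had the largest rise, 2.07 ± 0.15 (8.92 at 6H and 6.84 in DS). NAF1 (AT1G03530), an assembly factor of box H/ACA particles, had a change of -0.98 ± 0.14 between 6H and TR and of -2.43 ± 0.14 between DS and OC. The gene that fell, AT5G52490, was under the floor at every stage. AT5G18180 stood at 3.98 at TR and at 5.16 in DS, its highest stage.

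Of 20 genes of the small subunit processome and 40S maturation 19 rose at 6H (median 0.91), against 29.6% of all loci, and 18 fell at TR (median -0.58), against 26.2%. All 20 were highest at 6H, as were 17% of all loci, and all 20 were lower at OC than in DS, against 42.4%. AT1G31660 (ENP1) rose by 1.79 ± 0.10, DIM1A (AT2G47420), an rRNA dimethylase, fell by 0.84 ± 0.09 at TR, and TOZ (AT5G16750), a processome subunit, fell by 2.36 ± 0.14 between DS and OC. The WD-repeat gene PWP2 (AT1G15440) fell by 0.86 ± 0.10 between RH and GC.

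Of 23 genes of 60S maturation 20 rose at 6H (median 0.98), against 29.6% of all loci, 17 fell at TR, against 26.2%, and all 23 were lower at OC than in DS, against 42.4%. AT1G52930 rose by 2.24 ± 0.16. AT1G67120 (MDN1), the midasin gene, had the largest fall of all lists between DS and OC, -3.03 ± 0.09 (4.95 at OC and 7.98 in DS). AT4G31420 (REIL1) fell at 6H, with 7.08 at 6H and 8.54 in DS (-1.46 ± 0.13), and its later stage means lay between 6.82 and 6.93.

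All 10 genes of RNA polymerase I and of rRNA trimming were highest at 6H, as were 17% of all loci. Of these 9 rose at that step (median 0.82), against 29.6% of all loci, 10 fell at TR (median -0.73), against 26.2%, and 10 were at least 2-fold lower at OC than in DS, against 21.6%. RRP4 (AT1G03360), an exosome subunit, rose by 1.93 ± 0.13. NRPA2 (AT1G29940) and NRPA1 (AT3G57660), subunits of RNA polymerase I, fell: NRPA2 had a change of -0.92 ± 0.11 between 6H and TR and NRPA1 one of -2.65 ± 0.12 between DS and OC. Of the 4 nucleolar HD2 histone deacetylases all 4 rose at 6H, against 29.6% of all loci, and all 4 were highest there, against 17%. HDT4 (AT2G27840) had the largest rise, 2.54 ± 0.11. At TR 1 of the 4 fell and 0 rose, against 26.2% and 22.2% of all loci. Between DS and OC 2 fell and 1, HDT4, rose (0.27 ± 0.11), against 42.4% and 33.2%. On median-centred arrays, and after a further quantile normalization, 3 of the 4 rose at 6H.

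The 21 ribosomal protein genes, whose products are what the biogenesis factors assemble, rose at the same step. All 21 rose at 6H, 13 at least 2-fold, against 29.6% and 14.6% of all loci, with a median change of 1.10 against 1.14 for the 9 members. At TR 3 rose and 0 fell, against 22.2% and 26.2% of all loci (median 0.10, against -0.36 for the members). At RP 2 fell, at RH 3, at GC 9, with 1 rise, and at OC 15, against 7.45%, 11.9%, 10.9% and 17.9% of all loci. At OC 11 of the 21 were above DS and 1 below (median 0.25), against 33.2% and 42.4% of all loci, where 0 of the members were above and 8 below (median -0.83). Of the 21, 5 were highest at 6H, 11 at TR, 4 at RP and 1 at RH. Over all 27789 loci 4727, 2045, 1499 and 1709 were highest at these stages. RPS6 (AT4G31700) stood 0.95 ± 0.10 above DS at OC, and RPL3B (AT1G61580) rose by 2.03 ± 0.14 at 6H and by a further 0.99 ± 0.14 at TR. The counts of ribosomal proteins between DS and OC turned over with the scaling: on median-centred arrays 1 of the 21 was above DS and 11 were below. Of all 88 list loci 1 was then above and 78 were below. On those arrays 24.5% of all loci rose between DS and OC and 62.8% fell, so the turn of the ribosomal proteins goes with a shift of all loci. A difference between lists within an array is the same under either centring.

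**Figure D5:**
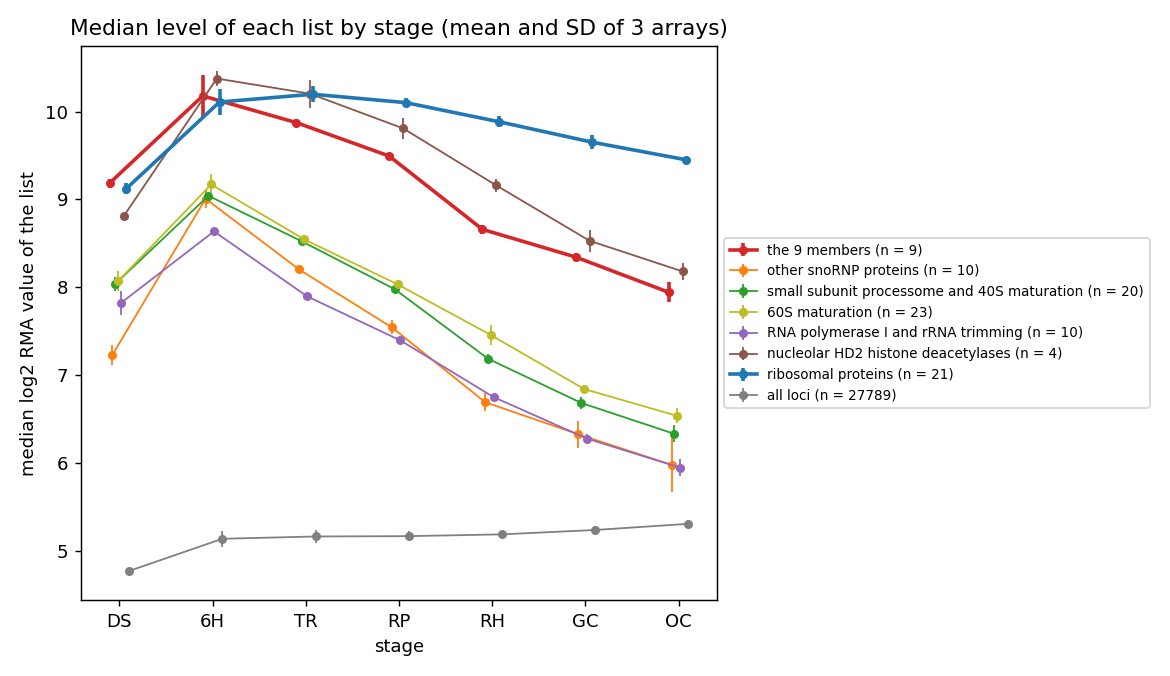
Median level of each list (log2 RMA value, vertical axis) at the 7 stages (horizontal axis), as mean and SD of the medians of 3 arrays, for the 9 members, 5 biogenesis lists, ribosomal proteins and all loci. The members stand at 9.18 in DS, 10.18 at 6H and 7.94 at OC, and the ribosomal proteins at 9.12, 10.11 and 9.45. Lines of different lists are compared in shape and not in height.

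Some marker lists also changed over the stages, with courses unlike that of the members, and their part in the result was not tested. The 5 genes of dividing cells were at a median of 3.68 in DS, 5.05 at 6H, 5.21 at TR, 5.84 at RP, 6.33 at RH, 6.22 at GC and 5.54 at OC. None of the 5 was highest at 6H, 2 being highest at RP and 3 at GC. The 6 endosperm markers had medians between 6.17 and 6.42 over the 6H arrays and between 4.41 and 5.05 over the DS arrays, but the 6 did not move together. MAN7 (9.18 at 6H and 6.18 in DS) and EXPA2 (10.65 at 6H and 5.31 in DS) were highest at 6H. The other 4 were highest in DS, namely EPR1 (11.24 at 6H and 11.86 in DS), AGL62 (3.45 at 6H and 4.13 in DS), FIS2 (2.85 at 6H and 3.25 in DS) and RGE1 (3.04 at 6H and just above the floor in DS). All 4 markers of green cotyledons were highest at OC, as were 5199 of the 27789 loci. At OC 7 of the 9 members were lowest, and how many of all loci were lowest there was not counted.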

How the data were processed

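Total RNA of 21 samples was amplified from 50 ng, labelled with biotin and hybridised to expression arrays, per the labels' protocols. The authors deposited 1 table of log2 values for 35986 probe sets, and the submitters' processing notes name RMA, a method of background correction, quantile normalization and probe summary. The array platform, the build of its probe sets and software versions are not given in the sources used here. No sample column was left out.

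Values were averaged per locus. Dropping 215 probe sets whose values were identical between loci cost 192 loci, so close relatives may still share signal. Symbols came from the TAIR10.1 reference table (27175 of 27789 loci present). Stage means were fitted to the 21 arrays together with limma 3.58.1 under R 4.3.3, which left 14 residual degrees of freedom. Contrasts were tested 2-sided with Benjamini-Hochberg adjustment over all loci. The pipeline was tested on simulated data. Replicate numbers gave no sign of pairing the arrays: 4 of 21 same-numbered pairs correlated over 0.1, and in 0 of 7 comparisons did all 3. With 3 arrays a stage this check is weak and cannot exclude pairing.

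Named were all 9 members, the largest rise and fall of each pathway list, the most similar loci, and a few genes chosen after their values were seen (AT5G18180 and the marker genes). The members, lists and tests were chosen with earlier results of these data known. Alternatives were further scaling, omission of dim loci, other priors and weights, another probe set rule, a replicate block, a fit on 6 arrays, other thresholds, and omission of arrays. Comparisons of TR, RP, RH and GC with DS, and omission of DS replicate 2 with OC replicate 2, were added after the data were seen. No sequence is shown.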

Additional observations from a re-analysis of the deposited data

How the results depend on the processing

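All 9 members had their highest stage mean at 6H and passed the F test under every alternative run for these results. At the first step 9 rose under each alternative except the 2 centrings (8 each), a log2 threshold of 0.5 (8) and the 2-fold threshold (6). FIB2 passed between 6H and TR under 6 alternatives, among them both centrings (-0.28 on the median and -0.38 on reference genes). Of single changes of members under alternatives 978 stayed on the same side of the threshold, 99 lost the call, 20 gained it and 1 reversed with a call, that of FIB2 between DS and OC (-0.36 on median-centred arrays). Most of the 99 came from the settings that only raise the threshold, a log2 change of 0.5 and 2-fold. Of the 978, 972 kept their sign and 6 changed it without passing either way: 5 of NUC-L2 between GC and OC, and FIB2 between DS and OC on reference genes (-0.0049). After a further quantile normalization 1 member, not 0, rose between DS and OC, and AT5G27120 minus AT3G05060 passed (0.46). Centring on reference genes left 4 falls between TR and RP. Tested against a log2 change of 0.5, falls numbered 1 at TR, 0 at RP, 1 at RH, 0 at GC, 0 at OC and 5 between DS and OC. The shares of all loci were 9.46%, 0.486%, 1.59%, 0.759%, 3.59% and 25.5% in that order. With at least 2-fold required the falls of members numbered 1, 0, 0, 0, 0 and 4. Of all loci 7.34% fell so at TR, 0.766% at RP, 1.74% at RH, 0.972% at GC and 21.6% between DS and OC. Between GC and OC 840 of the 27789 loci did. The fit on 6 arrays left 0 falls between GC and OC. On median-centred arrays 5 pathway loci fell at 6H, 2 rose at TR and 1 was above DS at OC, against 60.4%, 20.9% and 24.5% of all loci. Rises at 6H then numbered 15 in the small subunit list and 17 in the 60S list, against 19 and 20 as deposited. The other pathway lists had fewer rises too. Leaving out 1 DS array put NUC-L1 minus NUC-L2 between -1.15 and -1.09, without a call. The replicate block gave 9 rises at 6H and 8 falls between DS and OC and changed no count of members. Without DS replicate 2 and OC replicate 2, falls between GC and OC numbered 2. Levels near the floor limit what NUC-L2 can show after TR, and with 3 arrays a stage small changes were not detectable.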
